A study of Mus musculus with 12 samples.

Results

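The proteasome subunit genes were examined in mouse embryonic fibroblasts that lack KSR1, a scaffold protein of the Ras to ERK kinase cascade. Members were the probe sets whose platform gene symbol begins with Psma, Psmb, Psmc, Psmd, Psme or Psmf followed by a number. These letters matched 55 of the 12488 probe sets on the array, and 53 of them stand for 41 genes of the proteasome, its assembly chaperones and its activators, among 8949 genes named on the array. The other 2, Psmc3ip and Psme3ip1, are named for proteins that bind a subunit and were set aside. Psmc3ip was below the filter on low values and Psme3ip1 was not called in any comparison. Psma8, Psmb11 and Psmf1 were not analysed here.

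The study profiled 4 cell lines, each on 3 Affymetrix arrays. All lines had the genotype KSR1-/- on the DBA background strain and all carried green fluorescent protein (GFP). The GFP line carried GFP alone, the H-RasV12 line carried GFP with the oncogenic Ras mutant H-RasV12, the KSR1 line carried GFP with re-expressed KSR1, and the fourth line, called here the double line, carried GFP, KSR1 and H-RasV12 together. Each condition is 1 cell line, so a difference between conditions is also a difference between lines. Nothing says that the arrays of a line came from separate cultures, and the p-values measure only the spread between these arrays, which may be technical. The vectors and promoters that drove KSR1 and H-RasV12 are not given in the sources used here.

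The proteasome degrades proteins tagged with ubiquitin. Its 20S core is a barrel of alpha rings, which gate the entry, around beta rings, which carry the proteolytic sites. Its 19S cap has a base, whose ATPases unfold the substrate, and a lid, which removes ubiquitin. Interferon replaces the catalytic beta subunits with Psmb8, Psmb9 and Psmb10, giving the immunoproteasome, whose peptides the Tap transporter carries to class I molecules, and it also raises the activators Psme1 and Psme2, which open the core without the 19S cap. Psme4, also known as PA200, is another cap of the core.

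Values are MAS5 signals, a probe set's brightness on a linear scale, and signals of different probe sets are not comparable as levels. The tests covered the 6897 probe sets whose signal was above 181 on at least 3 of the 12 arrays. Of the 53 members, 43 probe sets of 37 genes passed this filter. All 7 alpha ring probe sets passed, with 9 of 12 of the constitutive beta ring, 1 of 3 of the immunoproteasome catalytic subunits, 9 of 12 of the 19S base, 10 of 10 of the lid, 3 of 3 of the base assembly chaperones and 4 of 6 of the activators. The 10 below the filter were Psmb8, Psmb9, Psmc4, Psmd2, second probe sets of Psmb1, Psmc5, Psme1 and Psme2/Psme2b, and 2 of Psmb4. The activator written Psme2/Psme2b carried both symbols, and its signal cannot be divided between them. Fold changes are differences of log2(signal + 23) with their standard error (SE), and a probe set was called higher or lower at a limma p-value under 0.05 after Benjamini-Hochberg adjustment over all 6897.

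The arrays were checked on Ksr1 and on cell type markers. The Ksr1 probe set 92765_s_at had mean signals of 67.4 in the GFP line, 22.2 in the H-RasV12 line, 915 in the KSR1 line and 235 in the double line, and it rose in KSR1 against GFP (adjusted p = 0.00309) and in the double line against H-RasV12 (adjusted p = 0.0136, both limma). It did not pass for the double line against GFP (adjusted p = 0.0835). A second tested Ksr1 probe set, 92764_at, rose in none of these (adjusted p = 0.854, 0.173 and 0.714 in the same order). The arrays of 92765_s_at spread widely, with 933, 1605 and 207 in the KSR1 line and 301, 262 and 141 in the double line. GFP replicate 1, at 144, stood above double line replicate 3. The fitted value of 92765_s_at for the double line against KSR1 was -1.52 ± 0.62 (SE) and did not pass (adjusted p = 0.124, limma). The summed signal of the 9 fibroblast markers was 46284 to 61533 in the GFP line, 46601 to 65748 in the H-RasV12 line, 35941 to 37039 in the KSR1 line and 18253 to 28865 in the double line, so it moved with the groups, and its part in the results below was not tested. Vim and Thy1 were among these markers and were below the filter. The sum adds signals that are not comparable as levels, so the brightest probe sets weigh most. In the KSR1 line the means of Col1a1, Col1a2, Col3a1 and Pdgfrb were below those in the GFP line. The means of Dcn (2807 in GFP and 5751 in KSR1), Pdgfra (1433 and 1963) and S100a4 (11434 and 12787) went the other way. The leukocyte sum lay between 443 and 1184 on all 12 arrays, with 2 of its 7 markers tested, Laptm5 at 143 to 377 and Cd79a at 42.2 to 200.1. Of the other 5, Ptprc, which encodes CD45, was at 27.4 or less, while Csf1r reached 541 on GFP replicate 1 and 567 on KSR1 replicate 1. The sum of 4 endothelial markers lay between 123 and 429, and that of 4 epithelial markers between 477 and 1104. In each of these 2 lists 1 marker was tested, Pecam1 and Cdh1, and the epithelial marker Cdh1 had signals of 411 to 994. The part of these markers was not tested. An 18S ribosomal RNA control was 146 to 516 on 4 arrays, which were replicate 1 of GFP, of KSR1 and of the double line and replicate 3 of GFP. On the other 8 arrays it was 1114 to 3312. Its part was not tested.

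Few proteasome subunits were called different between the lines. For H-RasV12 against GFP limma called 0 of 43, where 0.0725% of all tested probe sets were called. For KSR1 against GFP it called 1 of 43 (background 11.8%), with 1 higher (background 4.97%) and 0 lower (6.81%). Between the double line and KSR1 it called 3 of 43 (background 15.1%), with 2 higher (8.16%) and 1 lower (6.92%). Between the double line and H-RasV12 it called 3 of 43 (background 14.8%), with 2 higher (7.1%) and 1 lower (7.71%). Between the double line and GFP it called 4 of 43 (background 15.6%), with 3 higher (7.71%) and 1 lower (7.93%). The interaction, which is the response to H-RasV12 with KSR1 minus the response without it, had 0 of 43 (background 7.7%). In all 6 comparisons the members' share called was below the background. The members were brighter than the background, with a median of mean signals of 1797 against 567 for all tested probe sets. The part of this difference in these shares and in the fold changes below was not tested. For H-RasV12 against GFP only 5 of 6897 probe sets were called, so 0 of 43 says little there. The median absolute log2 fold change of members and of all tested probe sets was 0.14 and 0.16 for H-RasV12 against GFP and 0.16 and 0.28 for KSR1 against GFP. For the double line it was 0.25 and 0.31 against KSR1, 0.18 and 0.28 against H-RasV12 and 0.28 and 0.29 against GFP. For the interaction it was 0.27 and 0.36. At an unadjusted p under 0.05 the counts were 1 of 43 for H-RasV12 against GFP (background 5.96%), 5 for KSR1 against GFP (24.9%) and 9 for the double line against KSR1 (27.4%). They were 5 for the double line against H-RasV12 (26.6%), 6 for it against GFP (26.8%) and 4 for the interaction (20.5%). In bulk RNA a change in the cells' mixture and a change per cell cannot be told apart. These comparisons share lines, so their counts are not independent of each other.

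The intervals show how large a change the arrays could have missed. For the double line against GFP, the 95% interval of the log2 fold change lay within 1 in either direction, which is within 2-fold, for 37 of the 43 members. It did so for all 43 in H-RasV12 against GFP, for 39 in KSR1 against GFP and in the double line against KSR1, and for 38 in the double line against H-RasV12. For the interaction it did so for only 27 of 43. The members' median log2 fold change in the double line against GFP was 0.18, and that of all tested probe sets was -0.02. The members stood above GFP in 31 of 43 cases by fitted value and below in 12, where 48% of all tested probe sets stood above it. The forest plot of this comparison shows the intervals of every tested member.

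**Figure D1:**
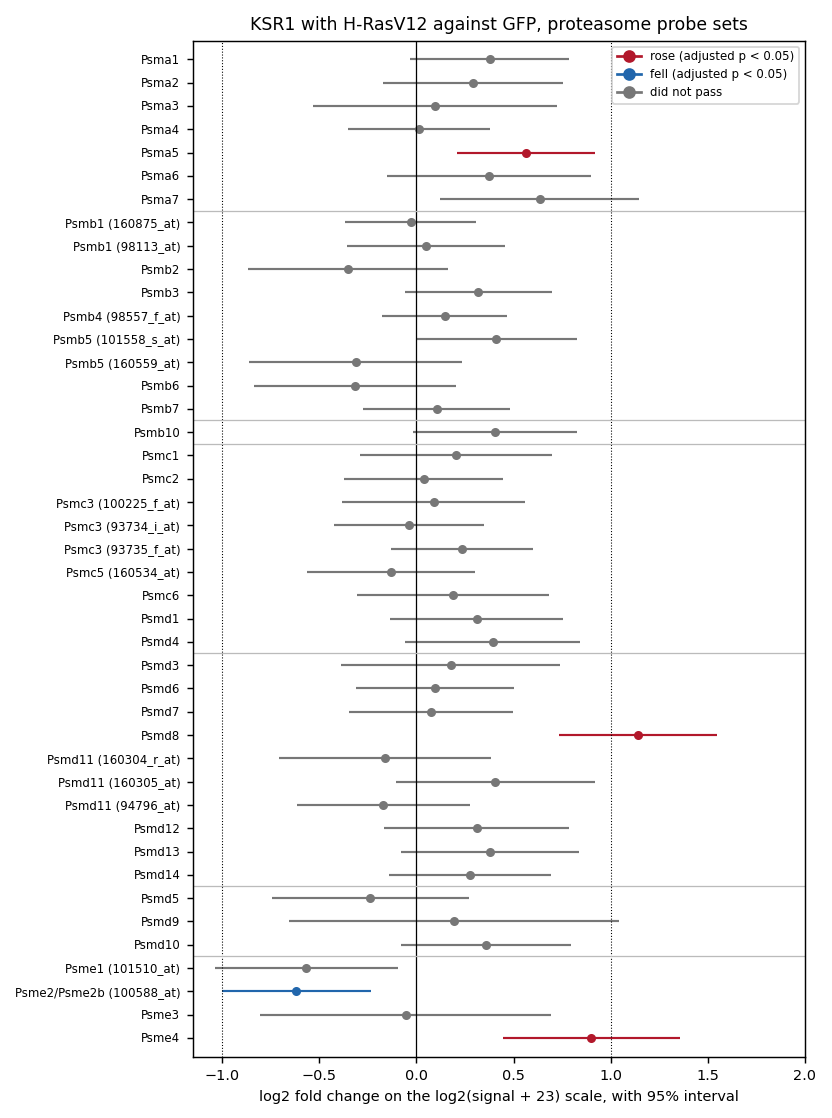
Log2 fold change (log2(signal + 23) scale) of the 43 tested proteasome probe sets in the double line against GFP, with 95% intervals, ordered from alpha ring to activators; red and blue mark the 4 called probe sets. Psma5, Psmd8 and Psme4 lie to the right of 0 and Psme2/Psme2b to the left, and most other intervals cross 0.

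The double line had the highest mean signal for 25 of the 43 tested members, which is 58.1%, against 26.6% of all tested probe sets. The KSR1 line was highest for 9 members (20.9%, against 33.5% of all tested probe sets). The H-RasV12 line was highest for 8 (18.6% against 20.2%) and the GFP line for 1 (2.33% against 19.7%). The GFP line was lowest for 17 members, and all tested probe sets were lowest there in 23.6% of cases. This order of means is a description and carries no test.

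**Figure D2:**
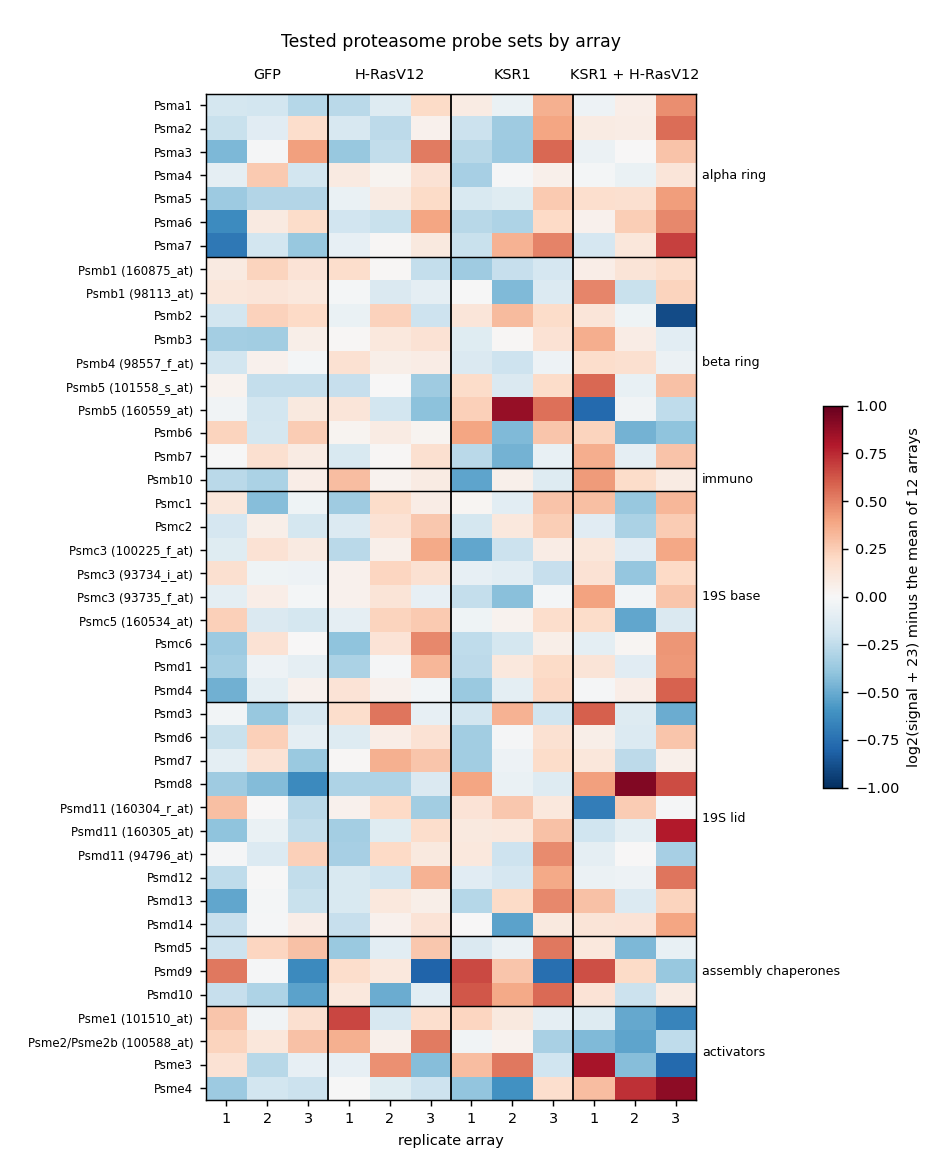
Tested proteasome probe sets (rows, grouped by subcomplex) on each of the 12 arrays (columns, grouped by line), coloured by the log2(signal + 23) value minus that probe set's mean over the 12 arrays. Psmd8 and Psme4 are highest across the double line, Psmd10 across the KSR1 line, and many alpha ring and 19S rows are higher on replicate 3.

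The alpha ring, encoded by Psma1 to Psma7, had 1 member called in any comparison. All 7 fitted values were above 0 in the double line against GFP, where 48% of all tested probe sets were above 0. They ran from 0.01 to 0.64 with a median of 0.37, and Psma5 alone was called. Psma5 had signals of 1799.8, 1885 and 1887 in the GFP line, 2213, 2455 and 2645 in the H-RasV12 line, 2085, 2123 and 2779.8 in the KSR1 line and 2610.0, 2592 and 3097 in the double line. All 3 double line arrays stood above all 3 GFP arrays, which were also below every array of the other lines. Psma5 rose by 0.56 ± 0.17 (SE) on the log2 scale, from 1858 ± 50.0 to 2766 ± 287 (SD, n = 3), with adjusted p = 0.0319 (limma). This call was lost without any of the GFP arrays (adjusted p 0.0735 to 0.0884) and without double line replicate 2 (0.0542) or 3 (0.106). It was also lost under median centring (0.0694), with only these lines in the fit (0.0796) and with replicates 2 and 3 alone (0.0965).

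Psma7 had the largest fitted value of the ring against GFP, 0.64 ± 0.24 in the double line, and did not pass (adjusted p = 0.0944, limma). Its signals were 1525, 2206 and 1925 in the GFP line, 2377, 2539.9 and 2688 in the H-RasV12 line, 2153, 3209.8 and 3555 in the KSR1 line and 2234, 2721 and 4045 in the double line. Against GFP it was 0.63 ± 0.24 in the KSR1 line (adjusted p = 0.109), and it was called there when the replicate number was a block, which brought the count of called members for KSR1 against GFP to 2.

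The ring's level also differed between arrays of a line. The median deviation of the 7 probe sets from their own means was highest on replicate 3 for H-RasV12 (0.19), for KSR1 (0.35) and for the double line (0.47), while in the GFP line it was highest on replicate 2 (-0.12). The values for all tested probe sets lay between -0.05 and 0.04 on the 12 arrays.

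**Figure D3:**
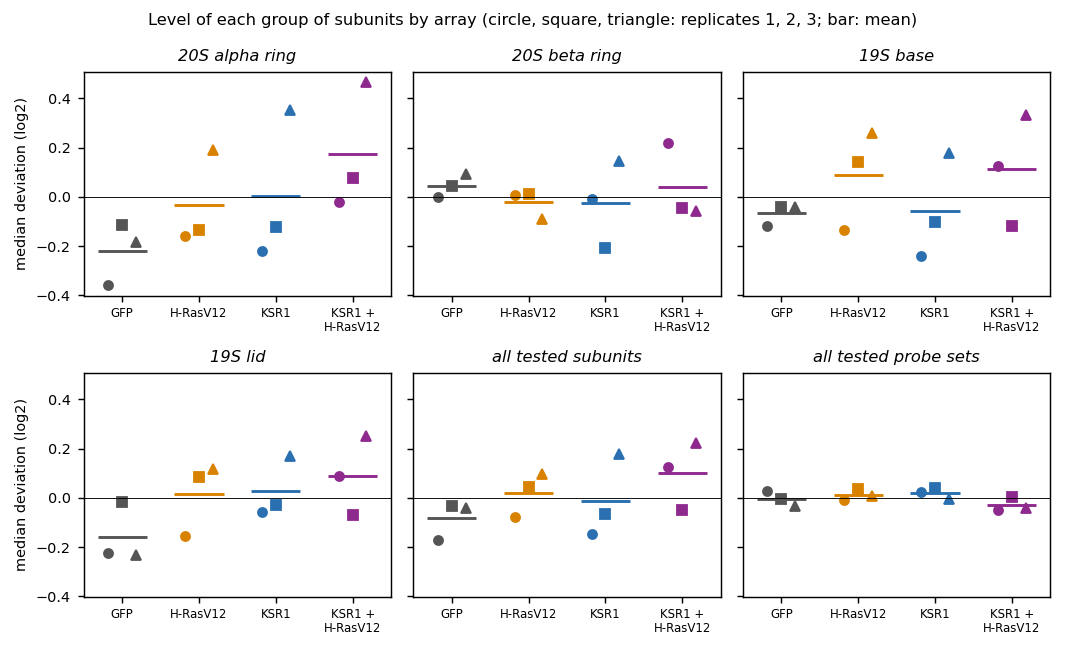
Median deviation of the 20S rings, the 19S base and lid, all tested subunits and all tested probe sets from the probe sets' means over the 12 arrays (log2 scale), by line, with circle, square and triangle for replicates 1, 2 and 3 and a bar for the mean. The alpha ring and the 19S base are highest on replicate 3 of the H-RasV12, KSR1 and double lines, and the panel of all tested probe sets stays near 0.

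The constitutive beta ring had 9 tested probe sets of 7 genes, and 1 was called. Psmb5, the subunit with the chymotrypsin-like site, gave values that disagree. Probe set 160559_at, which exceeded 181 on 10 of 12 arrays, had signals of 221, 197 and 244 in the GFP line, 249, 197 and 166 in the H-RasV12 line, 273, 435 and 344 in the KSR1 line and 123, 222 and 186 in the double line. All 3 double line arrays were below all 3 KSR1 arrays, and it fell by 0.91 ± 0.26 (SE) in that comparison (adjusted p = 0.027, limma). The other tested probe set, 101558_s_at, had means of 3512 ± 447 in the KSR1 line and 4059 ± 901 in the double line (SD, n = 3), a fitted value of 0.19 ± 0.19 that did not pass (adjusted p = 0.578). The fall of 160559_at was lost under median centring (adjusted p = 0.0715), quantile normalization (0.0625), without a filter (0.0526), with only these lines in the fit (0.0744), and without KSR1 replicate 2 (0.129) or 3 (0.0648) or double line replicate 1 (0.0797).

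The other catalytic subunits, Psmb6 with the caspase-like site and Psmb7 with the trypsin-like site, were not called in any comparison. Psmb6 had means of 857 ± 139 for GFP, 818 ± 19.2 for H-RasV12, 863 ± 252 for KSR1 and 695 ± 201 for the double line (SD, n = 3). Psmb7 had means of 2074, 1977, 1630.0 and 2251 in the same order. Psmb1, which is structural, had its lowest means in the KSR1 line on both tested probe sets, 1571 ± 104 and 2435 ± 368, against 2085 ± 96.9 and 2999 ± 9.92 in the GFP line (SD, n = 3). Neither difference passed (adjusted p = 0.122 and 0.349, limma).

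The 19S base, which includes the ATPases Psmc1 to Psmc6 and the ubiquitin receptor Psmd4, had no called probe set among 9 in any comparison. For H-RasV12 against GFP all 9 fitted values were above 0, from 0.02 to 0.23, where 52.6% of all tested probe sets were above 0. These 9 probe sets stand for only 7 genes. For the double line against GFP the fitted values ran from -0.13 to 0.39 with a median of 0.19. Every one of these intervals lay within 2-fold in either direction. Psmd4 had the highest of these values in the double line, with signals of 2270.0, 2399 and 3472 against 1634, 2148 and 2363 in the GFP line. Its groups overlap.

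The lid had 10 tested probe sets of 8 genes, and Psmd8 was the only one called in any comparison. Psmd8 encodes Rpn12, a lid subunit that joins late in assembly. Its signals were 1267, 1195 and 1034 in the GFP line, 1304, 1306 and 1466 in the H-RasV12 line, 2138, 1547 and 1484 in the KSR1 line and 2170.1, 3111 and 2565 in the double line. The arrays of the double line stood above all others, those of the KSR1 line came next, and the H-RasV12 arrays were all above the GFP arrays. Psmd8 rose in the double line by 1.14 ± 0.19 (SE) against GFP (adjusted p = 0.000712), by 0.92 ± 0.19 against H-RasV12 (adjusted p = 0.00375) and by 0.60 ± 0.19 against KSR1 (adjusted p = 0.0467, all limma). The means were 1166 ± 119, 1358 ± 92.8, 1723 ± 361 and 2615 ± 472 (SD, n = 3). The values against GFP and against H-RasV12 were called under all 22 alternatives, while that against KSR1 was lost under 14 of 22, with adjusted p up to 0.167. For KSR1 against GFP the fitted value was 0.54 ± 0.19 and did not pass (adjusted p = 0.0833). The interaction was 0.38 ± 0.27 (adjusted p = 0.483), with a 95% interval from -0.19 to 0.95, so the response to H-RasV12 was not shown to differ with KSR1.

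The 250 bases before the start of Psmd8 are shown because this lid gene had the largest rise of any member, at chr7:29180674-29180923 of GRCm38.p6 on the minus strand (RefSeq). They hold none of the motifs searched, which are given with the immunoproteasome genes, and the run is in lower case throughout.
Psmd8: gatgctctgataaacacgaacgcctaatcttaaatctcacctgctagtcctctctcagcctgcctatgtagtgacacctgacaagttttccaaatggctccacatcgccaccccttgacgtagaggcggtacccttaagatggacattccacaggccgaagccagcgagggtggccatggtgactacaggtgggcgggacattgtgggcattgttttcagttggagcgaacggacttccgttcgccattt

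The other lid members did not pass in any comparison. Psmd3, Psmd6, Psmd7, Psmd12, Psmd13 and Psmd14, the last of which is the deubiquitinase of the lid, had fitted values between 0.08 and 0.38 in the double line against GFP. Psmd11, whose level is known to set how much proteasome is assembled in stem cells, had 3 probe sets that disagree there, with values of 0.41, -0.16 and -0.17. The last of these, 94796_at, had 2313 ± 310.4 in the GFP line and 2052 ± 244 in the double line (SD, n = 3).

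Psmd5, Psmd9 and Psmd10 are chaperones that hold the ATPases while the base assembles. Psmd10, also called gankyrin, had signals of 284, 268 and 226 in the GFP line, 364, 233 and 312 in the H-RasV12 line, 530.3, 445 and 510.2 in the KSR1 line and 372, 288 and 359 in the double line. The 3 KSR1 arrays were higher than all others. Psmd10 rose in the KSR1 line against GFP by 0.88 ± 0.20 (SE), from 259 ± 29.9 to 495 ± 44.5 (SD, n = 3), with adjusted p = 0.011 (limma). It was the only member called in that comparison, where 4.97% of all tested probe sets were called higher, and the call was lost without GFP replicate 3 (adjusted p = 0.0613). In the double line against KSR1 the fitted value was -0.52 ± 0.20 and did not pass (adjusted p = 0.113), and the interaction of -0.71 ± 0.29 did not pass either (adjusted p = 0.173).

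Psmd5 and Psmd9 were not called. Psmd9 varied more between the arrays of a line than between lines, with 601, 407 and 255 in the GFP line and 652, 471 and 310.4 in the double line, and in each of the 4 lines replicate 1 was highest and replicate 3 lowest.

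The activators of the core went both ways. Psme4, which caps the core and is linked to histone turnover and DNA repair, had signals of 699, 793 and 775 in the GFP line, 904, 829.8 and 779.5 in the H-RasV12 line, 685, 586 and 1023 in the KSR1 line and 1127, 1518 and 1707 in the double line. All 3 double line arrays were above the 9 others. Psme4 rose in the double line by 0.90 ± 0.21 (SE) against GFP (adjusted p = 0.00951), by 0.92 ± 0.21 against KSR1 (adjusted p = 0.00871) and by 0.76 ± 0.21 against H-RasV12 (adjusted p = 0.0268, all limma). The means were 756 ± 50.4, 838 ± 62.4, 765 ± 229 and 1450.3 ± 296 (SD, n = 3). For H-RasV12 against GFP and for KSR1 against GFP the fitted values were 0.14 ± 0.21 and -0.02 ± 0.21, and neither passed (adjusted p = 1 and 0.97). The interaction of 0.78 ± 0.30 did not pass (adjusted p = 0.154), so the excess in the double line over what each gene gave alone was not called. The rise against GFP was called under all 22 alternatives, that against KSR1 was lost without KSR1 replicate 2 (adjusted p = 0.051), and that against H-RasV12 was lost without any H-RasV12 array (0.0535 to 0.0908) and without double line replicate 2 (0.0841) or 3 (0.103).

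The stretch before the start of Psme4 is shown because it was called in all 3 comparisons of the double line. It lies at chr11:30771525-30771776 on the plus strand of GRCm38.p6 (RefSeq), runs 2 bases past the start, and has in capitals a match to the core of the antioxidant response element, TGACNNNGC, on the other strand, beginning 7 bases before the start.
Psme4: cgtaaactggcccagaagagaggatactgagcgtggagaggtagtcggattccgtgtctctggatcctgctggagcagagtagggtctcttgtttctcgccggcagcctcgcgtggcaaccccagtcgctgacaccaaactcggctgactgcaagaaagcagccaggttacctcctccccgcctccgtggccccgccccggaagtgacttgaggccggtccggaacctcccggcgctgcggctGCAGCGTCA
This core is in 6 of the 39 member promoters found (Psmd9, Psme4, Psmb6, Psmd12, Psmc6 and Psmb5) and in 12.4% of all 32851 promoters in the RefSeq table, each 300 bases long. The 39 promoters belong to 36 of the 42 member gene names, and a match is a description of the letters.

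**Figure D4:**
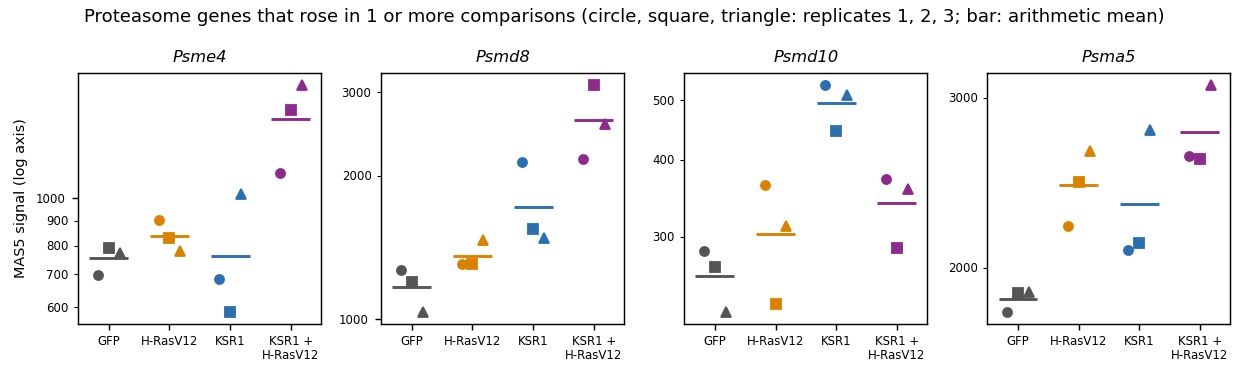
MAS5 signal (log axis) of the 4 members that rose in at least 1 comparison, with the 3 arrays of each line as points and their arithmetic mean as a bar. Psmd8 and Psme4 are highest in the double line, Psmd10 is highest in the KSR1 line, and Psma5 is lowest in the GFP line.

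Psme2/Psme2b, an activator that interferon raises, had signals of 785, 727 and 829 in the GFP line, 863, 696 and 970.3 in the H-RasV12 line, 654, 687 and 530.4 in the KSR1 line and 488, 458 and 558 in the double line. The 3 double line arrays were below every GFP and H-RasV12 array. It fell by 0.72 in the double line against H-RasV12 (SE 0.18, adjusted p = 0.0136) and fell by 0.62 against GFP (SE 0.18, adjusted p = 0.0294, both limma). The means were 781 ± 51.0 in the GFP line, 843 ± 138 in the H-RasV12 line, 624 ± 82.6 in the KSR1 line and 501 ± 51.2 in the double line (SD, n = 3). Under median centring neither call held (adjusted p = 0.0575 and 0.102). The call against H-RasV12 was also lost without H-RasV12 replicate 1 (0.0519) or 3 (0.0705) without double line replicate 2 (0.0526) and with replicates 2 and 3 alone (0.0912). That against GFP was also lost without any GFP array (0.0523 to 0.11) without double line replicate 1 (0.0535) or 2 (0.0957), with only these lines in the fit (0.0741) and with replicates 2 and 3 alone (0.135).

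Psme1, its partner in the same ring, had signals of 912, 734 and 842 in the GFP line, 1205, 669 and 845 in the H-RasV12 line, 875, 805 and 706 in the KSR1 line and 686, 521 and 466 in the double line. The double line arrays were below all GFP arrays and overlapped the H-RasV12 arrays. The fitted values of -0.57 ± 0.22 against GFP and -0.66 ± 0.22 against H-RasV12 did not pass (adjusted p = 0.105 and 0.0601, limma). Without double line replicate 1 both passed (0.0457 and 0.0272), and the second also passed without H-RasV12 replicate 2 (0.0281).

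Psme3, the nuclear activator, had its widest spread in the double line, with 1544, 633 and 493, and was not called.

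Psmb8, the immunoproteasome form of the chymotrypsin-like subunit, exceeded 181 on only 2 of 12 arrays and so was tested in a fit of all 12422 non-control probe sets without a filter. Its signals were 424, 100.4 and 110.3 in the GFP line, 303, 136 and 129.6 in the H-RasV12 line, 126, 8.96 and 11.9 in the KSR1 line and 11.2, 34.2 and 5.63 in the double line. Replicate 1 was highest in every line but the double line, whose arrays were below all arrays of the GFP and H-RasV12 lines. In that fit Psmb8 fell by 2.38 in the double line against H-RasV12 (SE 0.63, adjusted p = 0.0347, limma), where 3.94% of probe sets were called lower. It fell by 2.35 against GFP (SE 0.63, adjusted p = 0.035, limma), where 4.31% were called lower. Without any 1 array of the H-RasV12 or double lines the first call was lost (adjusted p 0.0518 to 0.148), and the second was lost without GFP replicate 1 (0.131) or 3 (0.0561) and without any double line array (0.0519 to 0.121). The double line signals of 11.2 and 5.63 lie below the pseudocount of 23, so these folds are no exact size. Over the alternatives the value against H-RasV12 ranged from -3.63 to -1.79 and that against GFP from -3.57 to -1.66.

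For KSR1 against GFP the fitted value of Psmb8 was -1.82 ± 0.63 and did not pass (adjusted p = 0.125, limma), where 3.36% of probe sets were called lower. With the replicate number as a block it did (adjusted p = 0.035), and it also did without KSR1 replicate 1 (0.0196) and with replicates 2 and 3 alone (0.0147). The fitted value for the double line against KSR1 was -0.52 ± 0.63 (adjusted p = 0.704, background 3.5% called lower), with a 95% interval from -1.88 to 0.83.

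Psmb9, the immunoproteasome form of the caspase-like subunit, had signals of 162, 28.6 and 75.6 in the GFP line, 252, 29.2 and 30.8 in the H-RasV12 line, 17.2, 21.1 and 18.4 in the KSR1 line and 15.7, 17.7 and 15.4 in the double line. All 6 arrays with KSR1 were below all 6 without it, but replicate 1 of the GFP and H-RasV12 lines stood far above their other arrays. No comparison passed in the fit without a filter, with values of -1.23 ± 0.57 for KSR1 against GFP (adjusted p = 0.288, limma) and -1.32 ± 0.57 for the double line against GFP (adjusted p = 0.221). The latter passed without H-RasV12 replicate 1 (0.0446). Its signals in the KSR1 and double lines were all below the pseudocount of 23, where a fold on this scale says little.

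Psmb10, the remaining immunoproteasome form, for the trypsin-like site, was the only 1 of these 3 to pass the filter. It had signals of 433, 417 and 551 in the GFP line, 656, 538 and 558 in the H-RasV12 line, 358, 545 and 478 in the KSR1 line and 712, 601 and 559 in the double line. The double line arrays stood above all GFP and KSR1 arrays. The fitted values of 0.40 ± 0.20 against GFP and 0.43 ± 0.20 against KSR1 did not pass (adjusted p = 0.21 and 0.171, limma).

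**Figure D5:**
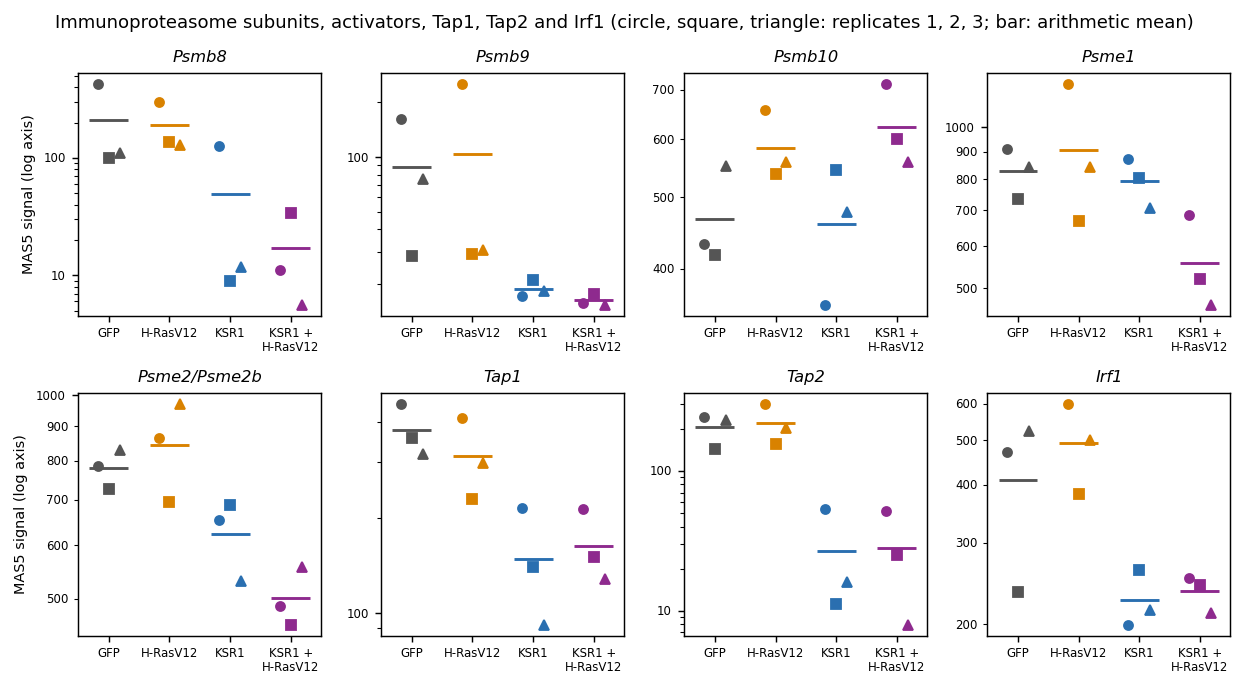
MAS5 signal (log axis) of the immunoproteasome subunits, the interferon-raised activators and Tap1, Tap2 and Irf1, by line, with circle, square and triangle for replicates 1, 2 and 3 and a bar for the arithmetic mean. The means of Psmb8, Tap1 and Tap2 are lower in the KSR1 and double lines than in the others, with KSR1 replicate 1 of Psmb8 among the GFP arrays, and Psmb10 has its highest mean in the double line and its lowest in the KSR1 line.

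Psmb8 and Psmb9 lie beside the transporter genes Tap1 and Tap2 as 4 adjacent genes of chromosome 17, in the order Psmb9, Tap1, Psmb8 and Tap2. Their control stretches are shown because the data bear on these neighbours together. Psmb9 and Tap1 start in opposite directions from the 225 bases between them, at chr17:34187331-34187555 on the plus strand of GRCm38.p6 (RefSeq). Near its beginning this run holds ccaat, a match to the inverted CCAAT box, ATTGG, on the other strand. That match was left in lower case. The 250 bases before Psmb8 lie at chr17:34197945-34198194 on the plus strand, with a match to the gamma-activated site, TTCNNNGAA, in capitals, 97 bases before the start.
Psmb9-Tap1: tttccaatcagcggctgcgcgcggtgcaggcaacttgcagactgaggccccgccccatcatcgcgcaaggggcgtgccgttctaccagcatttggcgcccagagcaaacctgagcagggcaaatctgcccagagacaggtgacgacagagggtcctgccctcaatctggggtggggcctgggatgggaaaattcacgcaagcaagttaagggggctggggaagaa
Psmb8: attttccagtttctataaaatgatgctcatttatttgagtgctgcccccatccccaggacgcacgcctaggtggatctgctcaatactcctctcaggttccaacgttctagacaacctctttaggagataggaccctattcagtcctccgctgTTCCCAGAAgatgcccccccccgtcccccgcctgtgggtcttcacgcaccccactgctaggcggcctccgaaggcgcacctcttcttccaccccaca
Both strands of the 300 bases from 250 before to 50 after each start were searched. TTCNNNGAA, which several STAT proteins bind, was in 2 of the 39 member promoters (Psmd2 and Psmb8) and in 8.3% of all. The core of the interferon-stimulated response element, searched as 2 runs of GAAA with any 2 bases between them, was in 4 of 39 (Psmd4, Psmd9, Psmb3 and Psme1) and in 3.44% of all, and in Psme1 it lies on the other strand from base 10 of the transcript, at chr14:55578503-55578512.
Psme1 match: TTTCGCTTTC
ATTGG, the inverted CCAAT box, was in 13 of 39 and in 37.4% of all. The gamma-activated site and the response element can overlap where a GAA falls in both.

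The class I genes were taken from a fixed list of peptide-loading genes. Tap2, which forms the transporter with Tap1, had signals of 243, 143 and 229.7 in the GFP line, 300.3, 156 and 201 in the H-RasV12 line, 53.2, 11.2 and 16.1 in the KSR1 line and 51.6, 25.0 and 7.97 in the double line. All arrays with KSR1 were below all arrays without it. Tap2 fell by 2.26 in the KSR1 line against GFP (adjusted p = 0.00382) and fell by 2.29 in the double line against H-RasV12 (adjusted p = 0.00264, both limma). It passed the filter through the GFP and H-RasV12 arrays, and all KSR1 and double line signals were below 181, several of them under the pseudocount. Its fold is therefore no exact size: with pseudocounts of 50 and 1 the first value was -1.75 and -3.16 and the second -1.78 and -3.20.

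Tap1 fell by 1.26 in the KSR1 line against GFP (adjusted p = 0.0125) and fell by 1.11 in the double line against GFP (adjusted p = 0.0203), and its -0.84 for the double line against H-RasV12 did not pass (adjusted p = 0.079). The first call was lost without KSR1 replicate 3 (0.0579), and the second without GFP replicate 1 (0.0784) or double line replicate 2 (0.0638) or 3 (0.0794). Tapbp, which encodes tapasin, the bridge between Tap and class I molecules, fell by 1.48 in the double line against H-RasV12 (adjusted p = 0.0148), a call lost without H-RasV12 replicate 1 (0.0821) or double line replicate 3 (0.0717). Irf1, an interferon-induced transcription factor, fell by 0.98 in the same comparison (adjusted p = 0.0237), a call lost under 5 of 22 alternatives (0.0562 to 0.112).

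Of the 8 class I genes tested, 2 fell and 1 rose in the KSR1 line against GFP, where 6.81% of all tested probe sets were called lower and 4.97% higher. In the double line, 2 fell against H-RasV12 (7.71% called lower), and 2 fell and 1 rose against GFP (7.93% lower and 7.71% higher). The gene that rose in both was H2-K1, a class I heavy chain, by 1.22 (adjusted p = 0.0078) and 1.07 (adjusted p = 0.0127), read by a probe set that can share its family's sequence. The second call was lost with only these lines in the fit (0.0519) and without GFP replicate 2 (0.0637) or 3 (0.0716). Tap2 is in each of these counts of class I genes that fell, and it passed the filter only through arrays of the GFP and H-RasV12 lines. With 8 genes tested, the class I list has too few genes to set against those shares. Of the 3 interferon regulators tested, Irf1 was called in the 1 comparison given and Irf7 and Irf9 in none.

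Genes that serve the proteasome are given with the share of all tested probe sets called higher in the same comparison, which was 4.97% for KSR1 against GFP and 8.16%, 7.1% and 7.71% for the double line against KSR1, H-RasV12 and GFP. Of 11 assembly and associated genes tested, Uchl5, a deubiquitinase of the 19S cap, rose in the KSR1 line against GFP by 0.92 (adjusted p = 0.0308) and in the double line against GFP by 1.12 (adjusted p = 0.00774, both limma). Its signals were 510.3, 666 and 561 in the GFP line, 605, 722 and 859 in the H-RasV12 line, 909, 1033 and 1454 in the KSR1 line and 869.8, 1309 and 1822 in the double line. The KSR1 and double line arrays all stood above the GFP arrays. It also rose in the double line against H-RasV12 by 0.80 (adjusted p = 0.0491), a call lost under 16 of 22 alternatives, and in the KSR1 line against GFP under 6 of 22. Akirin2, which carries proteasomes into the nucleus, rose in the double line against KSR1 by 0.76 (adjusted p = 0.00941), a call lost without KSR1 replicate 2 (0.0543) and with replicates 2 and 3 alone (0.0611).

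Of 6 ubiquitin and delivery genes tested, Rad23b, a shuttle that brings ubiquitinated proteins to the 19S cap, rose in the double line by 0.90 against GFP (adjusted p = 0.0139) and by 0.78 against H-RasV12 (adjusted p = 0.0322, both limma). The first call was lost without double line replicate 3 (0.0611) and the second under 7 of 22 alternatives. With 1 gene called of 11 and 1 of 6, each list had too few genes to set against those shares. None of the 5 regulators tested was called in any comparison by limma. They were Nfe2l1, which drives subunit genes when the proteasome is inhibited, Nfe2l2, and their partners Mafg, Maff and Mafk. For KSR1 against GFP the median log2 fold change of these 5 was 0.53, and that of all tested probe sets was 0.04. Nfe2l1 alone had a lower mean in the KSR1 line (1299) than in the GFP line (1759). No gene of any of these lists was called for the interaction.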

How the data were processed

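Total RNA of 12 samples was hybridised to Affymetrix mouse arrays, with 4 lines and 3 arrays each. The deposited values are intensities on a linear scale, made with MAS5 by the authors, per the submitters' processing notes; its version is not given in the sources used here. Every array had a 2% trimmed mean between 500.25 and 500.32, so no further scaling was applied. Their small number limits the precision.

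Gene names came from the platform annotation, updated by gene identifier, and 10833 probe sets had 1 symbol, 396 had several and 1193 had none. After 66 controls and 5525 probe sets below the filter were left out, limma 3.58.1 in R 4.3.3 was fitted to 6897 probe sets as log2(signal + 23), with 4 group means, an intensity trend, 8 residual degrees of freedom and two-sided tests. The pseudocount is the 20th percentile of all values, rounded. The script was tested on simulated data. Promoters came from RefSeq (GRCm38.p6).

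Members and lists were chosen with earlier results of these data known. Named were the immunoproteasome members, up to 6 called members per comparison by size of change and up to 4 called genes per list, while Psma7, Psmb1, Psmb6, Psmb7, Psmd4, Psmd9, Psmd11 and Psme3 were chosen after their values were seen. Replicate numbers come from the sample titles. Deviations of same-numbered arrays correlated above 0.1 in 13 of 18 pairs, and those of differently numbered arrays in 6 of 36. Every same-numbered pair was above 0.1 for GFP with KSR1 (0.51, 0.21 and 0.37) and KSR1 with the double line (0.21, 0.16 and 0.43). The same held for H-RasV12 with KSR1 (0.12, 0.28 and 0.36). The main tests did not pair the arrays in any comparison. A fit with the replicate number as a block was run as an alternative for every comparison. Alternatives covered the pseudocount, the filter, the scaling, the fit, the replicate block and each array left out.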

Additional observations from a re-analysis of the deposited data

How the results depend on the processing

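H-RasV12 against GFP had 0 called members under all 22 alternatives and the interaction 0 under all 21. For KSR1 against GFP the count of 1 became 2 with the replicate block, while calls over all tested probe sets went from 813 to 1047, and ranged from 0 to 2 without 1 array (0 without GFP replicate 3, with 482 over all, and 2 without KSR1 replicate 1, with 654 over all). For the double line against KSR1 the count of 3 became 1 under quantile normalization, without a filter and with only these lines in the fit, and ranged from 0 to 3 without 1 array (0 without KSR1 replicate 2, 1 without KSR1 replicate 3, with 699 and 878 over all against 1040). It stayed at 3 with the replicate block (1290 over all). For the double line against H-RasV12 the count of 3 ranged from 1 to 4 without 1 array, with 1 without H-RasV12 replicate 1 or 3 or double line replicate 2, and was 4 with the block (1022 to 1265 over all), which added Psme1 (adjusted p = 0.0196, limma). For the double line against GFP the count of 4 became 2 under median centring, with only these lines in the fit and with replicates 2 and 3 alone, and ranged from 2 to 5 without 1 array, with 2 without any 1 GFP array or double line replicate 2. With the block it was 6 (1079 to 1317 over all), adding Psme1 (adjusted p = 0.0389) and Psma7. In these last comparisons not every same-numbered pair correlated above 0.1. The values were 0.28, 0.1009 and 0.0994 for GFP with the double line, and 0.0327, 0.0257 and 0.38 for H-RasV12 with it. The cause of these changes was not tested. Median centring left 2 members higher and 0 lower in each comparison of the double line. It moved the median of all tested probe sets from -0.07 to 0.09 for the double line against KSR1 and from -0.08 to 0.09 for the interaction. Over all calls it moved the share that were higher from 54.1% to 69.5% for the double line against KSR1 and from 54% to 68.8% for the interaction.

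Some uncalled values near 0 changed sign. For H-RasV12 against GFP, Psme1 became -0.063 with replicates 2 and 3 alone and -0.13 without H-RasV12 replicate 1. Psme2/Psme2b became -0.0083 without H-RasV12 replicate 3. On leaving out 1 array, Psme1 ranged from -0.13 to 0.28, Psme2/Psme2b from -0.0083 to 0.23, Psmb8 from -0.32 to 0.64 (with -0.29 and -0.24 between) and Psmb9 from -0.89 to 0.36 (with 0.31 and 0.29 between). For KSR1 against GFP, Psmb10 became 0.085 with replicates 2 and 3 alone, 0.09 without GFP replicate 3 and 0.13 without KSR1 replicate 1, and ranged from -0.16 to 0.13 on leaving out 1 array. Psme1 ranged from -0.14 to 0.0215, with 0.0105 between. In the double line against H-RasV12, Psmb10 ranged from -0.006 to 0.17 on leaving out 1 array. For the double line against KSR1, Psmb8 became 0.28 with replicates 2 and 3 alone and 0.20 without KSR1 replicate 1 (from -0.92 on leaving out 1 array), and Psmb9 became 0.0368 under quantile normalization and 0.0726 under median centring. Signal over background limits Psmb8 and Psmb9, which exceeded 181 on 2 and 1 of the 12 arrays.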
